A study of Mus musculus with 10 samples.

Results

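The node of Ranvier and its flanks were followed through 9 genes: Nfasc, Nrcam, Cntn1, Cntnap1, Cntn2, Kcna1, Ank3, Sptbn4 and Scn8a. Every probe set whose platform symbol field includes one of them was taken, which gave 31 of the 45101 probe sets on the array, each with 1 symbol in that field. The study compared Nkx2.2-/- mice with wild-type (WT) littermates, all of the C57BL/6 strain and 1.5 to 2 days old, with 5 mice and 5 arrays in each group. The tissue, cut from 20 µm sections, held medulla, pons and the upper end of the spinal cord, so that each RNA sample mixes many cell types. The allele that removes Nkx2.2 is not described in the labels, and nothing there gives the litter of a mouse. Values are log2 expression values made with RMA, which corrects background, brings the arrays to 1 distribution and turns the probes of each probe set into 1 value. Changes are Nkx2.2-/- minus WT on that scale. Values for single mice are given in the order of replicates 11, 12, 22, 29 and 43 for Nkx2.2-/- and of replicates 14, 15, 16, 18 and 21 for WT.

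Nodes of Ranvier are the short gaps between myelin segments where sodium channels gather and the action potential is renewed. Beside each node lies the paranode, where the edge of the myelin sheath is joined to the axon, and beyond it the juxtaparanode, where potassium channels sit under the myelin. Most of the proteins involved are made by the neuron, and many also build the axon initial segment, which needs no myelin. Some are made by glia too, as with neurofascin, whose nodal form comes from neurons and whose paranodal form comes from oligodendrocytes. Nkx2.2 is a homeodomain transcription factor of ventral neural progenitors and of the oligodendrocyte lineage. The comparison asks how transcripts of axonal and glial parts of the node stood at an age when myelin genes were low in the mutants.

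That setting was present on these arrays. The Nkx2-2 probe set read 4.73, 4.34, 4.24, 4.58 and 4.64 in the Nkx2.2-/- mice, against 6.88, 6.47, 6.49, 6.51 and 6.42 in the WT mice, a change of -2.05 (SE 0.111, limma adjusted p = 7.2e-05). The labels do not say whether the allele removes the stretch that this probe set reads. Mbp, which encodes myelin basic protein, changed by -2.74 in its brightest probe set (SE 0.216, limma adjusted p = 4.4e-04). Of the 49 probe sets of a 25-gene myelin list 12 fell and 0 rose, where 0.0511% of all probe sets fell. The mean over those genes lay between 5.78 and 5.95 in the Nkx2.2-/- mice, below the 6.14 to 6.36 of the WT mice. A list of 20 neuronal genes had a mean between 9.765 and 10.187 in the Nkx2.2-/- mice and between 9.947 and 9.997 in the WT mice. On 2 arrays, Nkx2.2-/- replicate 43 and WT replicate 14, the 3 prime control probe set of Gapdh exceeded the 5 prime one by 3.78 and 2.13, against -0.32 to 0.13 on the other 8 arrays. These 2 are called low-Gapdh arrays below because the 5 prime signal was low relative to the 3 prime one, not for the level of Gapdh itself. The brightest probe set of each node gene is given with and without them. In RNA of whole tissue, fewer cells of a type and less RNA per cell cannot be told apart.

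None of the 9 genes passed the test in either direction. Over all 45037 non-control probe sets 23 fell and 0 rose, which is 0.0511% (limma with Benjamini-Hochberg adjustment at 0.05), and 0 of the 31 node probe sets were among them, each with an adjusted p of 0.9997. At an unadjusted limma p under 0.05, 2 of the 31 were lower in the Nkx2.2-/- mice, where 2.35% of all probe sets were, and 0 were higher, where 1.08% were (3.43% in either direction). These 2 were the brightest probe sets of Nfasc and of Nrcam, both of the L1 family of cell adhesion molecules. By sign 13 probe sets were lower and 18 higher, with a median change of 0.01, against 49.2% lower and a median of 0.0010 over all probe sets. Without the low-Gapdh arrays 4 of 31 had an unadjusted limma p under 0.05, where 4.22% of all probe sets did, and 0 of 31 passed after adjustment, where 0.0511% did.

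**Figure D1:**
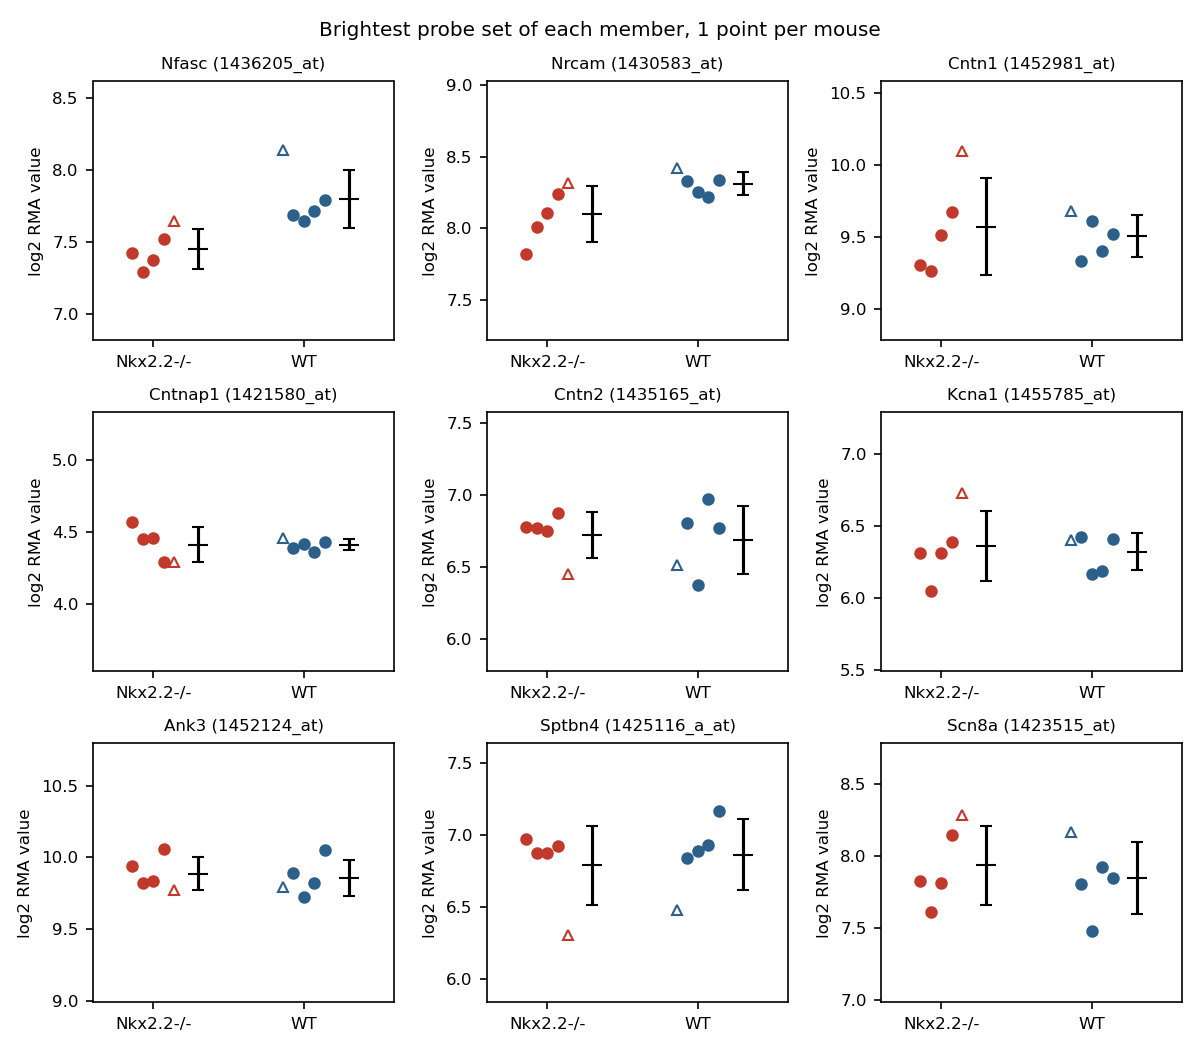
Log2 RMA value of the brightest probe set of each of the 9 genes (y axis, spanning the same number of log2 units in every panel), with Nkx2.2-/- mice at the left and WT mice at the right of each panel. Each point is 1 mouse (open triangles: Nkx2.2-/- replicate 43 and WT replicate 14), bars give the mean and SD of 5 mice, and the groups are apart for Nfasc, by less than the width of a point, and overlap for the other 8 genes.

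**Figure D2:**
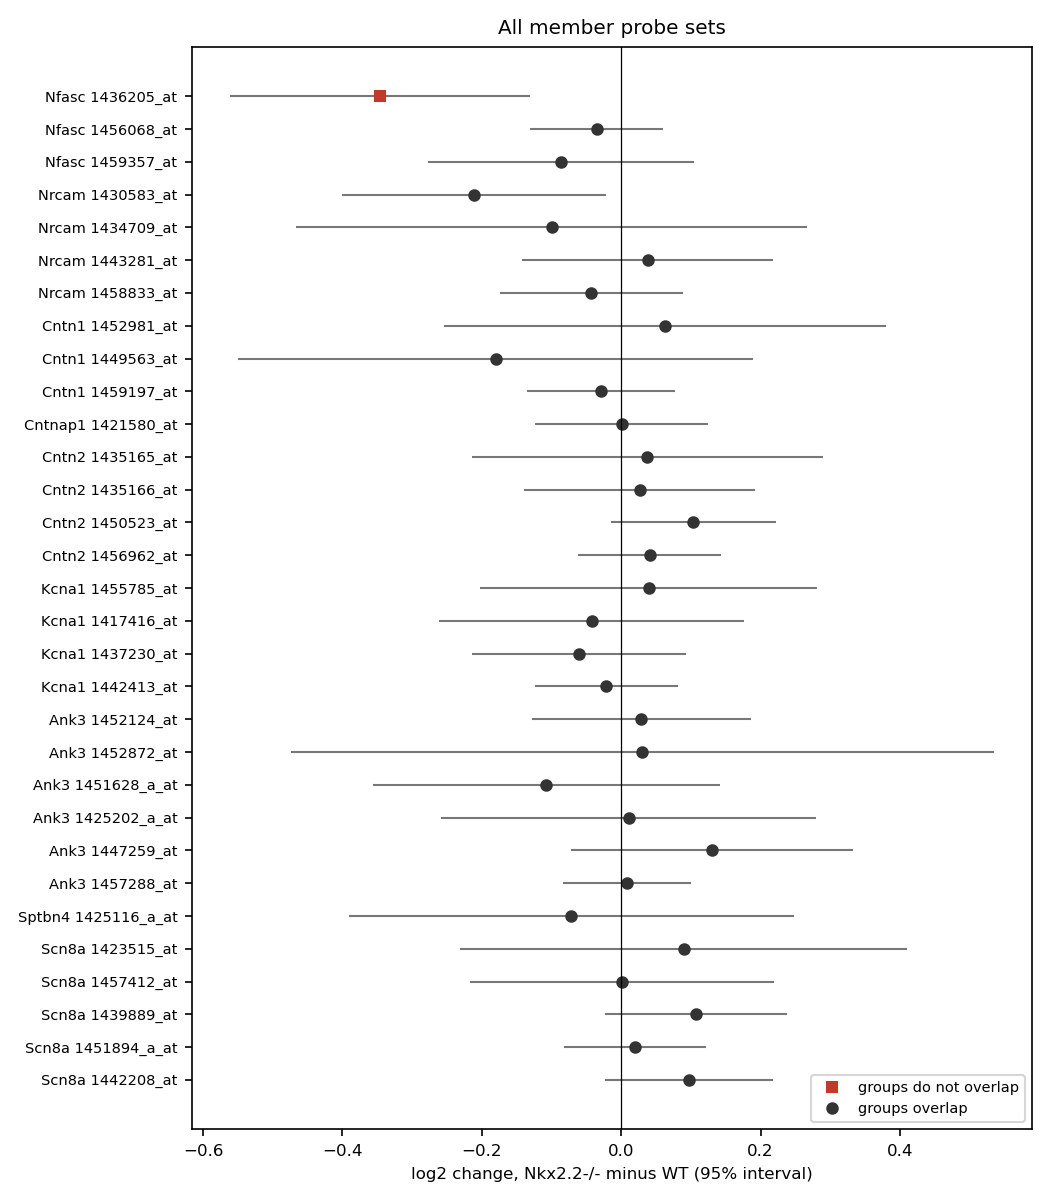
Log2 change, Nkx2.2-/- minus WT, of all 31 probe sets (x axis) with its 95% interval from limma, ordered by gene and by brightness within a gene. The square marks the Nfasc probe set whose groups do not overlap; its interval and that of the brightest Nrcam probe set lie below 0, and the other 29 intervals include 0.

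Nfasc encodes neurofascin, which holds together the nodal sodium channel complex on the axon and, in its glial form, the paranodal junction on the myelin side. Its brightest probe set, 1436205_at, read 7.29, 7.38, 7.43, 7.52 and 7.65 in the Nkx2.2-/- mice, against 8.14, 7.69, 7.65, 7.72 and 7.79 in the WT mice. All 5 Nkx2.2-/- mice thus lay below all 5 WT mice, though the gap between Nkx2.2-/- replicate 43 at 7.645 and WT replicate 16 at 7.646 was far smaller than the spread within either group. Nkx2.2-/- mice averaged 7.45 ± 0.137 and WT mice 7.80 ± 0.200 (SD, n = 5 each). The change of -0.35 is 1.27-fold lower, and its 95% interval runs from -0.56 to -0.13. Its unadjusted limma p was 0.00468, which ranks 170 among all probe sets and did not pass after adjustment (limma adjusted p = 0.9997). It was the 1 probe set of the 31 whose groups did not overlap in this direction, where 0.442% of all probe sets did so. None of the 31 had every Nkx2.2-/- mouse above every WT mouse, where 0.315% of all probe sets did. In each group the mouse of the low-Gapdh array had the highest value. Without these 2 mice the change was -0.31, the groups still did not overlap, as those of 1.41% of all probe sets in that direction, and the limma adjusted p was 0.397, at an unadjusted p of 3.8e-04. The myelin list moved with this probe set, being lower in the same 5 mice, and its part in the Nfasc value was not tested.

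The other Nfasc probe sets differed less between the groups. Probe set 1456068_at read 6.34, 6.37, 6.43, 6.51 and 6.32 in the Nkx2.2-/- mice, against 6.44, 6.43, 6.37, 6.48 and 6.43 in the WT mice. Both groups covered much the same range, and the change was -0.04 with an interval of -0.13 to 0.06. Probe set 1459357_at ranged from 5.51 to 5.99 in the Nkx2.2-/- mice and from 5.71 to 5.94 in the WT mice, with a change of -0.09. Without the low-Gapdh arrays it was -0.17, at an unadjusted limma p of 0.0473. Which transcripts of neurofascin each probe set reads was not known here, so neither probe set can be assigned to the neuronal or the glial form. Whether the changes within the gene were unequal was tested on the difference between 2 probe sets in each mouse. For 1456068_at minus the brightest probe set the mean was -1.06 ± 0.150 in the Nkx2.2-/- mice and -1.37 ± 0.191 in the WT mice (SD, n = 5 each). The change of 0.31 had an exact two-sided permutation p of 0.0317, which was 0.698 after adjustment over the 22 pairs of probe sets compared in 7 genes. None of the 22 pairs passed, and the smallest p that 5 against 5 can give is 0.00794. A single pair at that smallest p would not pass after adjustment over 22 pairs. The test therefore cannot decide whether the Nfasc changes were unequal.

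RefSeq places Nfasc on mouse chromosome 1, and the set of RefSeq promoter windows used here, in build GRCm38.p6, holds 2 transcription starts for it. Other starts were not looked for. Both promoter windows, from 250 bases before to 50 bases after a start, are shown because Nfasc was the gene whose groups did not overlap. Capitals mark AAGTG, the core of the sequence bound by homeodomain proteins of the NK-2 class, searched as AAGTG and, for the other strand, as CACTT.
Nfasc start 1, chr1:132707277-132707576, minus strand: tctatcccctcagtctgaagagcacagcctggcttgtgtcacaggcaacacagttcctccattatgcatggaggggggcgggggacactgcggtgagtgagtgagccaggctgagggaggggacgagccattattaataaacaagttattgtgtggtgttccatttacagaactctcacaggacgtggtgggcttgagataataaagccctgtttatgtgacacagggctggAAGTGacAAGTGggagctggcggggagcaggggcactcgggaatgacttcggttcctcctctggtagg
Nfasc start 2, chr1:132642809-132643108, minus strand: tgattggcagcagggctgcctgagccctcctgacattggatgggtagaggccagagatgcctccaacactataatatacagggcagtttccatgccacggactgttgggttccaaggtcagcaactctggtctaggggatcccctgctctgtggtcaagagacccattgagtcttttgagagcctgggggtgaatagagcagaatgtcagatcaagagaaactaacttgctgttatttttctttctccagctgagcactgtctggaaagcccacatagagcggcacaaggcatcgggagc
Wherever windows of opposite strands overlap in that set, in 1904 of 1904 pairs, they match as reverse complements, so each is read in the direction of its gene. The window of start 1 holds AAGTG 2 times, with first bases 18 and 11 bases before the start, and the window of start 2 holds neither spelling. Of all 32851 RefSeq promoter windows of this length, 46.4% hold the motif at least once. Among the genes studied, 6 of 9 had windows in the set, and 5 of their 13 windows hold it, or 38.5%. A match shows letters in a window and no binding.

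Nrcam encodes a relative of neurofascin that joins it at the node. Its brightest probe set, 1430583_at, read 8.01, 8.11, 7.82, 8.24 and 8.32 in the Nkx2.2-/- mice, against 8.42, 8.33, 8.25, 8.22 and 8.34 in the WT mice. Of the 5 Nkx2.2-/- mice 3 lay below every WT mouse, and replicates 29 and 43 lay within the WT range. The means of 8.10 ± 0.195 and 8.31 ± 0.0802 (SD, n = 5 each) gave a change of -0.21 with an interval of -0.40 to -0.02, at an unadjusted limma p of 0.0319. Without the low-Gapdh arrays it was -0.24, at an unadjusted limma p of 0.0155. Leaving out 1 array at a time gave an unadjusted limma p above 0.05 in 6 of 10 runs, up to 0.0720, and the average of the 4 Nrcam probe sets had a change of -0.079. The other 3 Nrcam probe sets had changes of -0.10, 0.04 and -0.04, each with an interval that includes 0. Probe set 1434709_at showed large shifts on the low-Gapdh arrays. It read 7.25, 7.46, 7.19, 7.77 and 8.01 in the Nkx2.2-/- mice, against 8.05, 7.50, 7.49, 7.65 and 7.48 in the WT mice, with the highest value of each group on that array.

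Contactin 1 and Caspr, the products of Cntn1 and Cntnap1, form the axonal side of the paranodal junction and bind glial neurofascin. The brightest Cntn1 probe set, 1452981_at, read 9.26, 9.51, 9.31, 9.67 and 10.10 in the Nkx2.2-/- mice, against 9.68, 9.33, 9.61, 9.40 and 9.52 in the WT mice. The groups overlapped, and the change of 0.06 had an interval of -0.25 to 0.38. Without Nkx2.2-/- replicate 43, which was the highest of all mice, it was -0.069, and without both low-Gapdh arrays -0.026. The Cntn1 probe set of lowest p, 1449563_at, read 8.74, 8.47, 8.46, 8.76 and 9.14 in the Nkx2.2-/- mice, against 9.20, 9.08, 8.74, 8.39 and 9.05 in the WT mice. Its change of -0.18 was smaller than the SD of either group, 0.278 in Nkx2.2-/- and 0.326 in WT. The remaining one, 1459197_at, changed by -0.03.

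Cntnap1 had 1 probe set, and it was dim. It read 4.45, 4.46, 4.57, 4.29 and 4.29 in the Nkx2.2-/- mice, against 4.46, 4.39, 4.42, 4.36 and 4.43 in the WT mice. The change was 7.1e-04 with an interval of -0.12 to 0.12, and 0.043 without the low-Gapdh arrays. Its mean exceeded that of 17.3% of all probe sets. RMA gives no detection call and compresses differences between dim probe sets, so a difference in Caspr transcripts may not have been detectable with this probe set.

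Contactin 2, also called TAG-1, and the channel subunit Kv1.1, encoded by Kcna1, belong to the juxtaparanode. Cntn2 is also made by young neurons while their axons grow and by oligodendrocytes. Its brightest probe set, 1435165_at, read 6.77, 6.75, 6.78, 6.88 and 6.45 in the Nkx2.2-/- mice, against 6.51, 6.80, 6.37, 6.97 and 6.77 in the WT mice. The change was 0.04 with an interval of -0.21 to 0.29, and 0.062 without the low-Gapdh arrays. All 4 Cntn2 probe sets had changes above 0, from 0.03 to 0.10, and none passed. The one of lowest p, 1450523_at, read 5.52, 5.52, 5.52, 5.41 and 5.36 in the Nkx2.2-/- mice, against 5.20, 5.40, 5.43, 5.38 and 5.39 in the WT mice. In that probe set 3 Nkx2.2-/- mice lay above all WT mice, at an unadjusted limma p of 0.0792.

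Kcna1 differed little in any of its 4 probe sets, whose changes ran from -0.06 to 0.04. The brightest, 1455785_at, read 6.05, 6.31, 6.31, 6.39 and 6.73 in the Nkx2.2-/- mice, against 6.40, 6.42, 6.17, 6.19 and 6.41 in the WT mice, with an interval of -0.20 to 0.28 around its change of 0.04. Nkx2.2-/- replicate 43 held the highest value, and without that mouse the change was -0.053, and without both low-Gapdh arrays -0.033. The Kcna1 probe set of lowest p, 1437230_at, read 4.93, 4.94, 4.88, 4.81 and 5.01 in the Nkx2.2-/- mice, against 4.86, 5.21, 4.92, 4.86 and 5.02 in the WT mice. These ranges overlap, and the change of -0.06 had an unadjusted limma p of 0.404.

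Ankyrin G and beta IV spectrin, encoded by Ank3 and Sptbn4, anchor sodium channels and neurofascin to the cytoskeleton at nodes and at the axon initial segment. Ank3 was read by 6 probe sets with changes from -0.11 to 0.13. The brightest, 1452124_at, was also steady between mice. It read 9.82, 9.83, 9.94, 10.06 and 9.77 in the Nkx2.2-/- mice, against 9.79, 9.89, 9.72, 9.82 and 10.06 in the WT mice, and the interval of its change of 0.03 was -0.13 to 0.19. Without the low-Gapdh arrays the change was 0.041. The one of lowest p, 1447259_at, read 5.75, 5.81, 5.81, 6.10 and 5.85 in the Nkx2.2-/- mice, against 5.73, 5.54, 5.73, 6.03 and 5.65 in the WT mice. Both groups had 1 mouse well above the rest, replicate 29 in Nkx2.2-/- and replicate 18 in WT. The widest interval of all 31, -0.47 to 0.53, was that of Ank3 probe set 1452872_at, which had a change of 0.03. It read 7.64, 8.07, 7.87, 8.49 and 8.94 in the Nkx2.2-/- mice, against 8.64, 7.92, 8.02, 8.23 and 8.05 in the WT mice. Probe set 1451628_a_at had a change of -0.11, and of -0.23 without the low-Gapdh arrays, at an unadjusted limma p of 0.0243.

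Sptbn4 had 1 probe set, 1425116_a_at. It read 6.87, 6.88, 6.97, 6.93 and 6.30 in the Nkx2.2-/- mice, against 6.48, 6.84, 6.89, 6.93 and 7.17 in the WT mice. The mouse of the low-Gapdh array was the lowest of its group in both genotypes. The change was -0.07 with an interval of -0.39 to 0.25, and -0.05 without those 2 mice.

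Scn8a encodes Nav1.6, the sodium channel of mature nodes, which replaces Nav1.2 there as myelin forms. All 5 Scn8a probe sets had changes above 0, from 0.00 to 0.11, and none passed. The brightest, 1423515_at, read 7.61, 7.81, 7.82, 8.15 and 8.28 in the Nkx2.2-/- mice, against 8.17, 7.80, 7.48, 7.92 and 7.85 in the WT mice, a change of 0.09 with an interval of -0.23 to 0.41. It was 0.083 without the low-Gapdh arrays. The one of lowest p, 1439889_at, read 6.18, 6.02, 6.05, 6.07 and 6.19 in the Nkx2.2-/- mice, against 6.07, 6.11, 5.99, 5.99 and 5.82 in the WT mice. Its change of 0.11 had an unadjusted limma p of 0.0989. Dim probe set 1442208_at ranged from 4.72 to 5.01 in the Nkx2.2-/- mice and from 4.67 to 4.81 in the WT mice, with a change of 0.10. Without the low-Gapdh arrays its 4 remaining Nkx2.2-/- mice lay above the 4 remaining WT mice, as 1.39% of all probe sets did, at an unadjusted limma p of 0.0549.

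The low-Gapdh arrays shifted many probe sets the same way in both genotypes, among the node genes and over the whole array. Of the 31, 12 were above the mean of the other 4 mice of their group on both arrays, 12 were below it on both, and 7 went opposite ways. Over all 45037 probe sets these numbers were 13647, 15903 and 15487. There the shift ran from -3.95 to 3.21 on Nkx2.2-/- replicate 43 and from -3.25 to 4.03 on WT replicate 14. Among the 31 it ran from -0.61 to 0.92 on Nkx2.2-/- replicate 43 and from -0.50 to 0.59 on WT replicate 14. Both of the largest rises were in Ank3 probe set 1452872_at, and on replicate 43 the largest drop was in Sptbn4. Probe sets of 1 gene could go opposite ways, since Ank3 probe set 1451628_a_at was 0.50 below the other WT mice on WT replicate 14. Each of these 4 extremes is larger than the change between genotypes of any of the 31 probe sets.

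**Figure D3:**
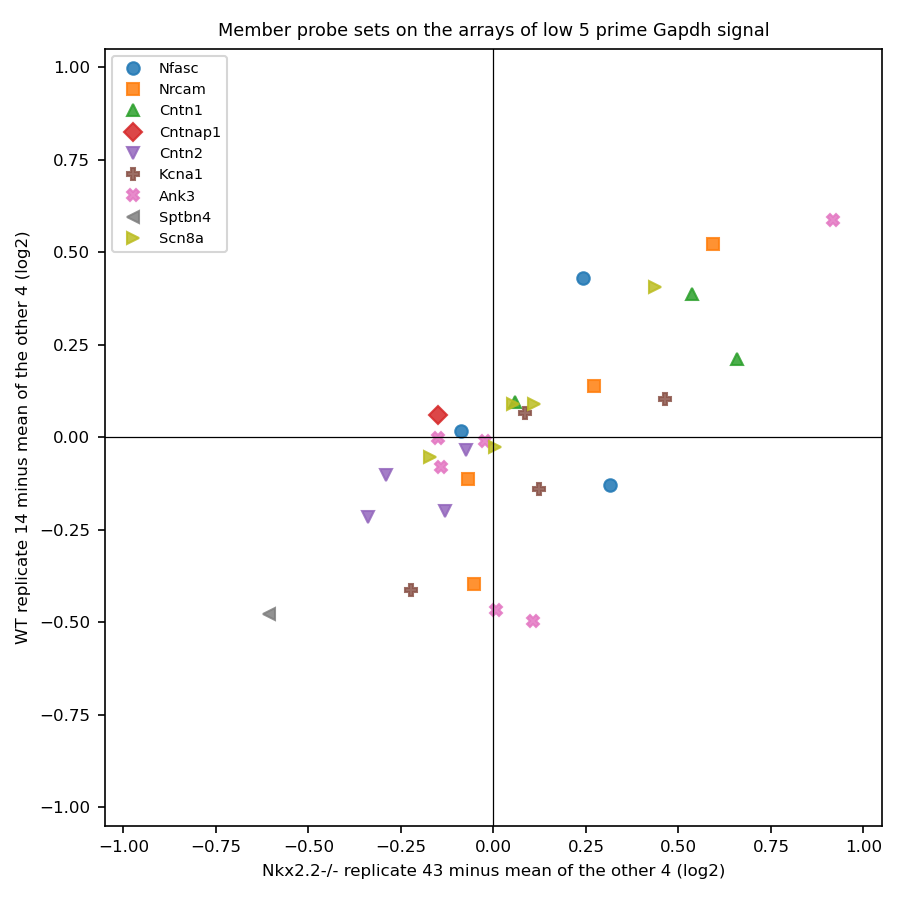
Shift of each of the 31 probe sets on Nkx2.2-/- replicate 43 (x axis) and on WT replicate 14 (y axis), each as log2 difference from the mean of the other 4 mice of its group, with a symbol for each gene. The upper right and lower left areas hold the 12 and 12 probe sets that moved the same way on both arrays, with Ank3 probe set 1452872_at at the upper right and Sptbn4 at the lower left.

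Other genes of the same structures were taken from lists. Of 48 measured genes with 132 probe sets, 2 probe sets fell and 0 rose (limma with Benjamini-Hochberg adjustment). Over all probe sets 0.0511% fell and 0 rose. The 2 that fell among the 132 belong to paranode genes that the myelin list also holds. They were Ugt8a, the transferase that makes the galactolipids on which paranodes depend, with a change of -1.07 (limma adjusted p = 0.0490), and Mag, a myelin glycoprotein facing the axon, with a change of -0.60 (limma adjusted p = 0.00894). With 1 array left out at a time, Mag passed in 10 of 10 runs and Ugt8a in 1, the run without Nkx2.2-/- replicate 43, with a limma adjusted p between 0.0587 and 0.235 in the other 9. With the spinal cord Hox covariate 0 of the 132 probe sets passed. Outside the myelin list 0 of 121 probe sets passed, where 0.0511% of all probe sets did. The median change of the 41 genes was 0.02, against 0.03 for the brightest probe sets of the 9 genes and -0.0042 for all 18193 genes. Among the 23 other genes of the node, the 4 of lowest p were Scn2b, Ank1, Tnr and Scn1a. Scn2b, a sodium channel beta subunit, had a change of -0.17, and Tnr, which encodes the matrix protein tenascin-R found around nodes, one of -0.22. Ank1, an ankyrin best known from red cells, had a change of 0.13 and Scn1a, the sodium channel Nav1.1, one of 0.25. None of these passed (limma adjusted p = 0.9997). Cd9 and Ermn, a tetraspanin and a cytoskeletal protein of oligodendrocytes, were the next 2 genes of the 12 other paranode genes, with changes of -0.29 and -0.15 (limma adjusted p = 0.618 and 0.9997).

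The 17 measured juxtaparanode genes had a median change of -0.0050, and 0 of their 47 probe sets passed, where 0.0511% of all probe sets did. Epb41l2, a relative of the scaffold protein 4.1B, had a change of -0.20, and Dlg4, which encodes the scaffold PSD-95, one of -0.22. Gjb1, the connexin 32 gene of myelinating cells, had a change of -0.05 and Lgi3, a secreted ligand of the ADAM22 family, one of 0.09. Relatives of the 9 genes, such as other contactins, ankyrins, spectrins and sodium and Kv1 channels, gave 0 of 66 probe sets past the test, with a median over 26 genes of -0.01.

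Marker lists of other cells are given beside these values. Neuronal genes had 0 of 44 probe sets past the test, where 0.0511% of all probe sets passed. Their median change was 0.01 over 20 genes, of which 12 were higher and 8 lower by sign. The 4 of lowest p were all higher, with Mapt at 0.11, Rbfox3 at 0.12, Dcx at 0.12 and Nefl at 0.08. None of these 4 had an unadjusted limma p under 0.05. Of the 44 probe sets 1 was lower at that threshold and 0 were higher, where 2.35% and 1.08% of all probe sets were. Astrocytic genes had 0 of 37 and a median of 0.02, and oligodendrocyte precursor genes had 0 of 20 and a median of 0.01. At an unadjusted limma p under 0.05, 4 of the 37 astrocytic probe sets were lower and 1 was higher. Of the 20 precursor probe sets 1 was lower and 2 were higher at that threshold. The mean of the Schwann cell list, whose cells form nodes in peripheral nerve, lay between 5.71 and 5.98 in the Nkx2.2-/- mice and between 5.81 and 6.11 in the WT mice, with 0 of 14 probe sets past the test. Genes of proliferating cells were lower by sign in 19 of 20, with a median change of -0.29, about that of the myelin list. Of their 48 probe sets 0 passed after adjustment and 21 were lower at an unadjusted limma p under 0.05. Their mean lay between 5.55 and 5.99 in the Nkx2.2-/- mice and between 5.88 and 6.41 in the WT mice, and their part in the values of the node genes was not tested. Cerebellar genes were lower by sign in 12 of 13 (median -0.09) and microglial genes in 9 of 10 (median -0.08), while endothelial genes had a median of -0.01, and 0 probe sets of these 3 lists passed. Spinal cord Hox genes, which mark how far caudally the tissue reached, were higher by sign in 12 of 13 (median 0.07), with 0 of 19 probe sets past the test. At an unadjusted limma p under 0.05, 4 of the 19 were higher, where 1.08% of all probe sets were, and 0 were lower. The Hox list averaged 5.003 to 5.551 in the Nkx2.2-/- mice and 4.933 to 5.183 in the WT mice. With that average as a covariate, Nfasc had a change of -0.40 and Nrcam one of -0.22. The unadjusted limma p rose from 0.00468 to 0.00944 for Nfasc and from 0.0319 to 0.0777 for Nrcam.

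**Figure D4:**
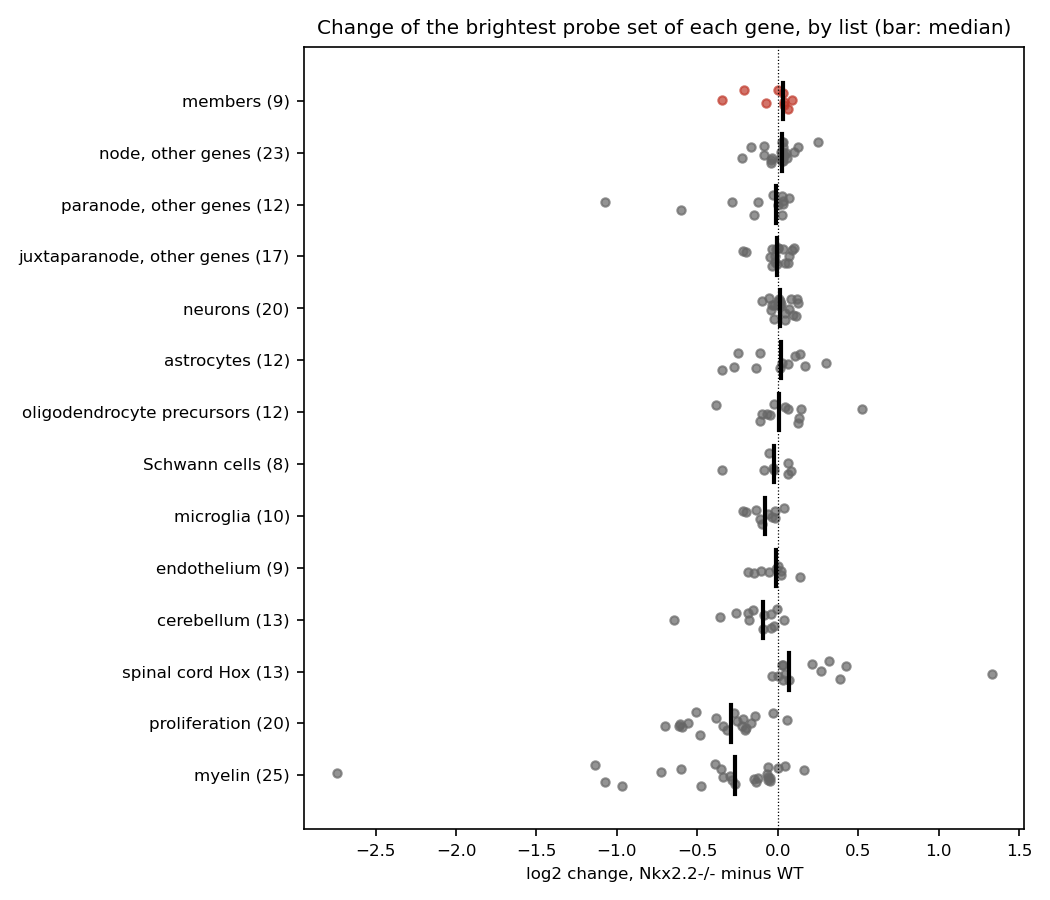
Log2 change, Nkx2.2-/- minus WT (x axis), of the brightest probe set of each gene, with a row for the 9 genes studied and for each of 13 lists, the number of genes in brackets and the median as a bar. The medians of the proliferation and myelin lists, at -0.29 and -0.26, lie farthest from 0, and the points far to the left in the paranode row are Ugt8a and Mag.

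Across the 10 mice, the genes whose brightest probe set ran most like that of Nfasc were Uba6, Bcas1, C330018D20Rik, Pank1 and Spice1, with Pearson correlations of 0.945, 0.927, 0.926, 0.920 and 0.910. These are descriptions over 10 arrays that include the genotype difference and the low-Gapdh arrays, with the highest 5 picked from 18193 genes. Bcas1, known as a gene of young oligodendrocytes, was at 7.45 ± 0.228 in the Nkx2.2-/- mice and 8.21 ± 0.287 in the WT mice (SD, n = 5 each). Its groups did not overlap, as those of 0.442% of all probe sets in that direction, and its change of -0.77 did not pass (limma adjusted p = 0.334). Bcas1 was picked for likeness to Nfasc, whose groups were also apart, so this is no independent result. The changes of the other 4 genes ran from -0.15 to -0.10.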

How the data were processed

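Expression was measured on 1 array for each of 10 mice. The deposited values are RMA values on the log2 scale, as the submitters' processing notes name the method, with no version. Of 45101 probe sets, 64 controls were left out and no dim probe set was filtered. Genes were named from the platform's annotation, and the 9 genes kept their symbols in RefSeq. Nkx2.2-/- and WT, grouped by sample title, were compared in limma 3.58.1 (lmFit and eBayes, R 4.3.3), adjusted over 45037 probe sets at 0.05. The fit was also run on simulated data with independent noise and changes larger than that of any node probe set. That run does not show how often changes as small as those of the node genes would be found. Figures used Python 3.11.15 and matplotlib 3.10.9. The number of arrays limits the precision, and p-values set the difference between genotypes against the spread between these samples. The 9 genes, the lists and the tests were chosen with earlier results of these data known. Each gene is named through its brightest probe set and that of lowest unadjusted p, each list through at most its 4 genes of lowest p, and others are given as values. Alternatives covered scaling, dim probe sets, 1 value per gene, prior, weights, covariates, thresholds and left-out arrays.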

Additional observations from a re-analysis of the deposited data

Results flagged for a closer look

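Values were screened for 1 mouse far from the other 4 of its group, in 66 groups of 5 (31 node probe sets, Nkx2-2 and Mbp, in both genotypes), and 5 stood out, where chance flags about 1 group in 20. Sptbn4 probe set 1425116_a_at was at 6.30 in Nkx2.2-/- replicate 43, below 6.87 to 6.97 in the other 4 mice. Ank3 probe set 1447259_at was at 6.10 in Nkx2.2-/- replicate 29, above 5.75 to 5.85 in the others. Cntn2 probe set 1450523_at was at 5.20 in WT replicate 14, below 5.38 to 5.43. Nkx2-2 was at 6.88 in WT replicate 14, above 6.42 to 6.51. Mbp was at 10.36 in WT replicate 18, below 10.83 to 10.94. Of these 5 values 3 come from the low-Gapdh arrays.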

How the results depend on the processing

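No paired analysis was possible because the labels do not give the litter of a mouse, and the groups share no replicate number. Without any 1 array 0 node probe sets passed (limma adjusted), and 0 passed in every other setting except an unadjusted p of 0.05, which took 2. That threshold gave 1545 probe sets in all, 25 of the myelin list, 6 of the other node, paranode and juxtaparanode genes and 1 unequal pair. Fewer features were tested with 1 value per gene: the brightest probe set gave 11 calls in all and 6 of the myelin list, the average per gene 12 and 5. With the spinal cord Hox covariate 15 probe sets passed. The 2 calls among other node, paranode and juxtaparanode genes became 1 with quantile normalization, a common median, a robust prior or a gene's mean. They became 0 with the Hox covariate or without the myelin list's genes (a run chosen after seeing the data). Without 1 array they were 1 in 9 of 10 runs and 2 in the other (1 to 2). In those 9 runs the call lost was Ugt8a, whose limma adjusted p was 0.0490 with all 10 arrays. Why the calls changed was not tested. Nfasc stayed below 0 in all settings, from -0.40 to -0.16, the smallest as the mean of its 3 probe sets, and from -0.39 to -0.26 without 1 array. Of 206 values for the 9 genes 0 passed and 25 changed sign. Cntn1 was at -0.049 as a gene mean, -0.034 with the Hox covariate and -0.026 without the low-Gapdh arrays. Kcna1 was at -0.021, -0.058 and -0.033 in these, at -6.9e-04 with the cerebellum covariate and -0.0031 with the Gapdh covariate. Ank3 was at -0.060 with the Hox covariate, and Cntnap1 at -0.0064 with quantile normalization and -0.0054 with the cerebellum covariate. Without 1 array Nrcam ranged from -0.27 to -0.14, Cntn1 from -0.069 to 0.14, Cntnap1 from -0.039 to 0.031, Cntn2 from -0.040 to 0.11, Kcna1 from -0.053 to 0.12, Ank3 from -0.015 to 0.078, Sptbn4 from -0.17 to 0.050 and Scn8a from -0.0019 to 0.17. Cntnap1 had no value without the dimmer probe sets. Signal near background limits what the dim probe sets can show.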
